A study of Mus musculus with 4 samples.

Results

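The transcripts described here encode 10 factors that bear on myogenic differentiation. They are the Id proteins Id1, Id2, Id3 and Id4, the Hes and Hey factors Hes1, Hes6, Hey1 and Heyl, and the mesenchymal factors Twist1 and Snai1. The members were all array probes outside the controls whose gene name is 1 of these 10. Each gene had 1 probe in 1 spot, so the group holds 10 of the 36413 gene names and 10 of the 55681 probes on the array. The study asked which transcripts depend on Fxr1, which encodes an RNA-binding protein of the fragile X family. RNA of C2C12 cells, an established mouse myoblast line, was hybridised to 4 one-colour Agilent arrays. Both groups were transiently transfected: the siFxr1 cells received an siRNA directed at an exon that all Fxr1 transcripts contain, and the siControl cells a control siRNA. Each group had 2 arrays, from experiment 1 and experiment 2, and each experiment had its own slide for both arrays. By the labels, RNA integrity numbers were 9 for 3 of the samples and 8 for siFxr1 of experiment 1.

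Myogenic differentiation is driven by MyoD and its relatives, basic helix-loop-helix factors that bind E-box sites in DNA as dimers with E proteins. Id proteins have the dimerisation helices but no basic region, so they take up E proteins in pairs that cannot bind DNA. Their genes are classic targets of BMP receptors and SMAD factors. Hes1, Hey1 and Heyl are repressors of the helix-loop-helix class, Hes1 with Groucho (TLE) proteins as corepressors, and they are induced when Notch receptors release their intracellular part to the DNA-binding factor RBPJ. Hes6 is a relative that opposes Hes1 and favours differentiation, so its role differs from that of the other members. Twist1 blocks MyoD and E proteins, and Snai1 is a zinc-finger repressor that occupies E-box sites.

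Every value of a member rests on a probe of 60 bases, and the 5 probes on which the results below mostly turn are shown by their last 30 bases, 5′ to 3′ as deposited. Capitals mark a polyadenylation hexamer, AATAAA or ATTAAA, which lies near the 3′ end of many mRNAs.
Hes1: tgagaaaatatAATAAAagagtgaaggctt
Hey1: gcttacccctttagaaggtataatttgaac
Heyl: tgaacttacgttttcatctgtaaaatggct
Id1: ttttttgttgttATTAAAcaaacactttag
Id3: cactccggaacttgtgatctccaaggacaa
In mm9, as the array files place them, the probe of Hes1 (A_55_P2046245) lies at chr16:30067820-30067879 on the plus strand and that of Hey1 (A_51_P258409) at chr3:8663432-8663491 on the minus strand. The probe of Heyl (A_52_P337259) lies at chr4:122926975-122927034 and that of Id1 (A_55_P2052563) at chr2:152563083-152563142, both on the plus strand. The probe of Id3 (A_51_P380178) spans chr4:135700075-135700249 on the plus strand, 175 bases of genome for 60 bases of probe. The hexamer was found on the given strand in 3 of the 10 member probes, those of Id1, Hes1 and Twist1, and in 13.7% of all 55681 probes. The G and C share of the member probes ran from 26.7% for Hes1 to 55% for Id3 and Hes6. The longest run of bases that any member probe shared with another was 11, between Id1 and Hey1, so no pair of members was read by near-identical probes. The exon or UTR of each probe was not looked up, because no annotation of mm9 was used here.

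Signals are given as log2 of the background-corrected intensity after quantile normalization, and a probe is called well above background where the scanner software marked it so. The software gave that mark to between 45.4% and 52.9% of the probes on an array, and 0 spots were saturated. Fxr1 itself checks the labels. Its 2 probes were lower in siFxr1 in both experiments, by 12.2-fold and 9.93-fold on average. They did not pass the test without a block (limma adjusted p = 0.950) and passed it with the experiment as a block and dim probes left out. Of 4 markers of C2C12 myoblasts, Myod1, Cdh15 and Des were well above background on all 4 arrays, and Myf5 was on none. Of 11 markers of other cell types, Cdh5, Bglap and Runx2 were well above background on all 4 arrays, while Ptprc, Epcam, Adipoq, Plin1 and Alpl were on none. Cd68, Pecam1 and Sp7 were on some of the arrays.

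Of the 10 members, 8 were well above background on all 4 arrays. Id4 and Twist1 were not well above background on any array, with values from 2.78 to 3.68 for Id4 and from 2.63 to 2.97 for Twist1. No fold is given for them, and log2 differences of Twist1 appear only in the closing section, for changes of sign at background level.

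In siFxr1 against siControl, none of the 10 members passed the test (0 of 10 in limma without a block, where the background was 0% of 55681 probes). The largest differences were those of the Notch-induced members Heyl, Hes1 and Hey1, which had higher signals in siFxr1 in both experiments, and Id1 had a smaller difference of the same sign. Id2, Id3, Hes6 and Snai1 differed in opposite directions in the 2 experiments. Whether a lower or higher signal reflects fewer cells with a transcript or less RNA per cell cannot be told apart in RNA of whole cultures.

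Hes1, the prototype Notch-induced repressor, had a log2 signal of 9.26 in siControl and 10.11 in siFxr1 in experiment 1, and of 7.62 in siControl and 8.39 in siFxr1 of experiment 2. Within each experiment the siFxr1 array was the higher, but the siControl array of experiment 1 lay above the siFxr1 array of experiment 2, so the groups overlapped. The siFxr1 signal was 1.80-fold that of siControl in experiment 1 and 1.70-fold in experiment 2. The log2 difference was 0.81 (SE 0.94, limma adjusted p = 0.975). With the experiment as a block the SE was 0.19 and the 95% interval ran from 0.21 to 1.41 (limma unadjusted p = 0.0230, adjusted p = 0.535).

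Hey1, a Notch-induced partner and relative of Hes1, had a log2 signal of 12.62 in siControl and 13.08 in siFxr1 in experiment 1, against 10.45 and 11.29 in experiment 2. The order within each experiment was again siFxr1 above siControl, and the gap between the experiments was larger than that between the groups. The log2 difference of siFxr1 from siControl was 0.65 (SE 1.12, limma adjusted p = 0.976), and its interval with the experiment as a block ran from -0.04 to 1.33.

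Heyl, a Hey factor induced by Notch in muscle lineage cells, had a log2 signal of 10.51 in siControl and 10.84 in siFxr1 in experiment 1, against 6.45 and 8.63 in experiment 2. The siControl array of experiment 2 stood apart as the lowest of the 4, and both arrays of experiment 1 lay above both of experiment 2. The siFxr1 signal was 1.26-fold that of siControl in experiment 1 and 4.53-fold in experiment 2. The mean log2 difference, 1.26 (SE 1.82, limma adjusted p = 0.975), exceeded in size that of 97.5% of the probes that every array measured well above background, and its interval with the experiment as a block ran from -0.47 to 2.99. The difference between the experiments in the size of this effect was not tested, since each experiment had 1 array per group.

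**Figure D1:**
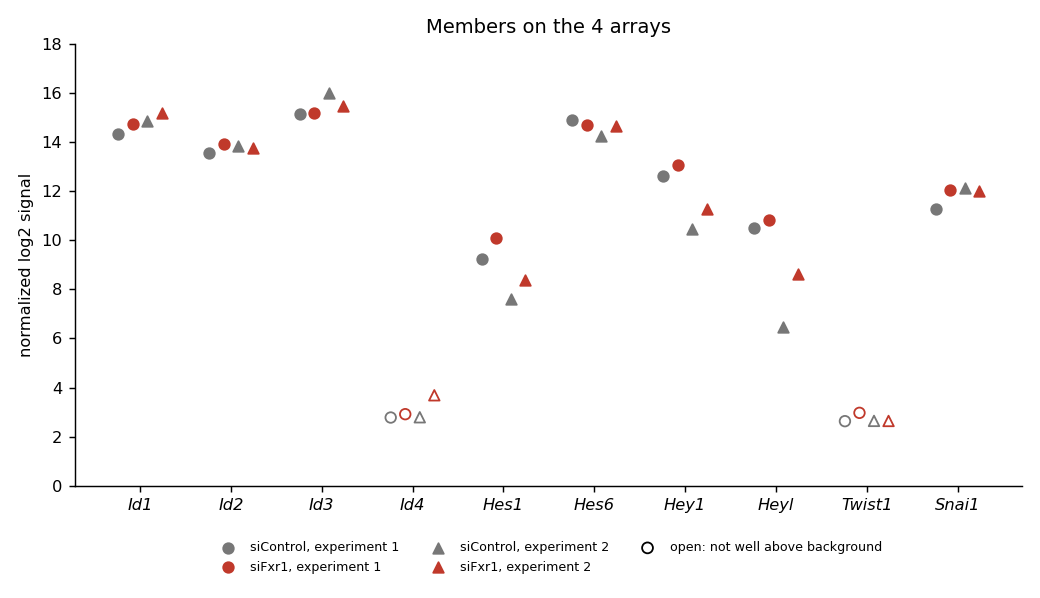
Normalized log2 signal (vertical axis) of the 10 members on the 4 arrays, with siControl in grey, siFxr1 in red, experiment 1 as circles and experiment 2 as triangles. Open symbols were not well above background. Hes1, Hey1 and Heyl separate by experiment, with Heyl between 6.45 and 10.84, and Id4 and Twist1 have open symbols on all 4 arrays.

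Id1, the Id gene most often used as a readout of BMP signalling, had a log2 signal of 14.34 in siControl and 14.72 in siFxr1 in experiment 1, and of 14.87 and 15.20 in experiment 2. The siFxr1 array was the higher in each experiment, and siControl of experiment 2 lay above siFxr1 of experiment 1. Its log2 difference was 0.39 in experiment 1 and 0.33 in experiment 2. The mean was 0.36 (SE 0.32, limma adjusted p = 0.975), and it had an interval from -0.24 to 0.96 with the experiment as a block.

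Id2, a broadly expressed Id protein, had 13.57 in siControl and 13.93 in siFxr1 in experiment 1, and 13.83 and 13.77 in experiment 2. Its log2 difference was 0.36 in experiment 1 and -0.06 in experiment 2. Id3, which like Id1 is a BMP target, had 15.14 and 15.18 in siControl and siFxr1 of experiment 1, against 16.02 and 15.47 in experiment 2. The siControl array of experiment 2 was the highest for Id3, so the log2 difference was 0.03 in experiment 1 and -0.55 in experiment 2. The mean differences, 0.15 (SE 0.19) for Id2 and -0.26 (SE 0.39) for Id3, did not pass the test (limma adjusted p = 0.975 for each). Their intervals with the experiment as a block, from -0.55 to 0.85 and from -1.05 to 0.53, included 0.

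Hes6, the member that favours differentiation, had a log2 signal of 14.91 in siControl and 14.70 in siFxr1 in experiment 1, and of 14.24 and 14.64 in experiment 2. The siFxr1 arrays lay between the siControl arrays, and the log2 difference was 0.09 (SE 0.30, limma adjusted p = 0.991). Snai1, the zinc-finger member, had 11.27 in siControl and 12.03 in siFxr1 in experiment 1, against 12.15 and 12.03 in experiment 2. Its siFxr1 arrays were nearly equal, and the siControl array of experiment 1 was the lowest of the 4. The log2 difference of Snai1 was 0.76 in experiment 1 and -0.12 in experiment 2, with a mean of 0.32 (SE 0.37, limma adjusted p = 0.975).

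**Figure D2:**
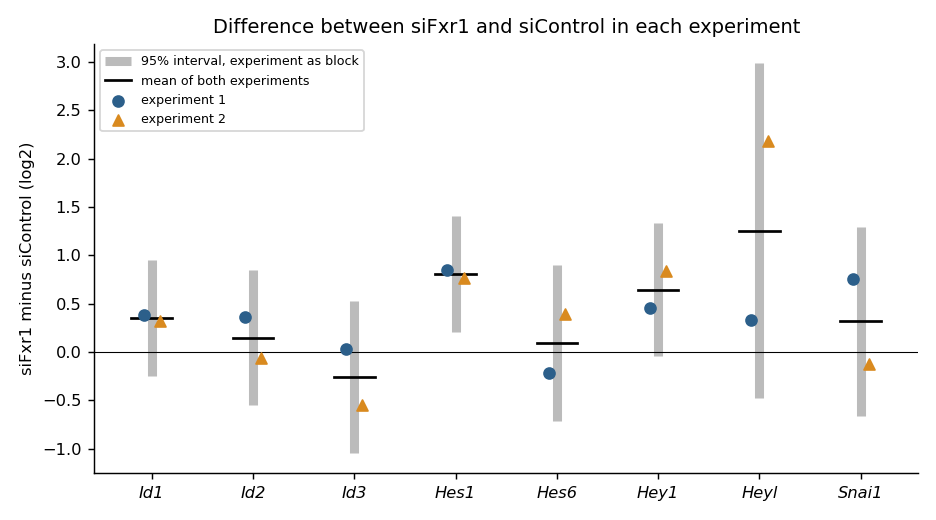
Log2 difference of siFxr1 from siControl (vertical axis) for the 8 members well above background on all 4 arrays. Circles are experiment 1, triangles experiment 2, black lines their mean, and grey bars the 95% interval of the fit with the experiment as a block. The bar of Hes1 runs from 0.21 to 1.41, while those of the other 7 members include 0.

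Counts over the 8 members are set beside the 23485 probes with values well above background on every array. Counts over so few members were not tested against those shares. Higher signals in siFxr1 in both experiments were found for 4 members, Id1, Hes1, Hey1 and Heyl (32.7% of all these probes), and lower signals in both for 0 members (31.1%). A difference of at least 2-fold in both experiments was found for 0 members in the direction of higher siFxr1 signal (1.12%) and for 0 in the direction of lower (1.30%). Both siFxr1 arrays lay above both siControl arrays for 0 of the 8 (15.3%), and below them for 0 (14.5%). The median log2 difference of the 8 members was 0.34, with a range from -0.26 to 1.26, against a median of 0.01 over all these probes. With the experiment as a block, 0 members were called, and so were 0 of all 55681 probes. With dim probes left out as well, 0 members were called where the background was 1.39% of 25540 probes. Without the block, 2764 of the 55681 probes had an unadjusted limma p under 0.05, and 4927 had one with it. The smallest two-sided p of an exact permutation test of 2 arrays against 2 is 0.333, so no single member could pass one.

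The pathways that feed these members gave 0 calls in siFxr1 against siControl without a block, and the values that follow are descriptions. Of 9 Notch ligands and receptors, 8 were well above background on all 4 arrays, of which 4 had higher signals in siFxr1 in both experiments and 2 lower. The log2 difference was 0.64 (SE 0.25) for the receptor Notch1 at its brighter probe, 0.43 (SE 0.40) for Notch3 and -0.85 (SE 0.27) for Notch4. The receptors thus had differences of both signs. Another probe of Notch1, well above background on 1 array, gave -0.51.

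Of the 16 genes of Notch processing and relay, 15 were well above background, with 6 higher in siFxr1 in both experiments, 4 lower and 5 of mixed direction. Adam17, a protease that sheds Notch and other surface proteins, had the largest difference, -1.30 (SE 0.37), with -1.33 in experiment 1 and -1.27 in experiment 2. Its second probe, which overlaps the first on the genome, was well above background on 3 arrays. That probe gave -0.93, with -0.43 in experiment 1 and -1.43 in experiment 2. Lfng, a glycosyltransferase that modifies Notch, had -0.93 (SE 0.62), almost all of it from experiment 2. Numbl, a relative of the Notch antagonist Numb, had -0.88 (SE 0.41). Of 6 further Hes and Hey genes and Notch targets, Hes7 alone was well above background on all 4 arrays, at -0.50 (SE 0.31), and among the 3 of 4 Groucho corepressors well above background on all 4 arrays Tle1 had the largest difference, 0.32 (SE 0.15).

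On the BMP side, all 9 receptors and SMADs were well above background, with 3 higher in siFxr1 in both experiments, 2 lower and 4 of mixed direction. Bmpr1a, a type I BMP receptor, had a log2 signal of 12.29 in siControl and 10.74 in siFxr1 in experiment 1, and of 11.59 and 10.33 in experiment 2. Both siFxr1 arrays lay below both siControl arrays, as they did for 14.5% of the 23485 probes. The log2 difference of Bmpr1a was -1.41 (SE 0.35, limma adjusted p = 0.967). With the experiment as a block its interval ran from -2.06 to -0.75 and it was not called (limma adjusted p = 0.535, or 0.0659 with dim probes left out), but with the block on median signal minus local background it passed the test (limma B 0.24, adjusted p = 0.0941). The receptors Acvr1 and Bmpr2 had 0.52 (SE 0.34) and 0.43 (SE 0.20). The inhibitory SMADs, both feedback genes of the pathway, had opposite signs, with -1.11 (SE 0.20) for Smad6 and 0.58 (SE 0.36) for Smad7. With the experiment as a block and dim probes left out, Smad6 was not called (limma B -1.80, adjusted p = 0.102). It was called lower with the 4 ratios between conditions as observations (limma B 0.99). Those ratios share arrays and are not independent, and 1107 probes were called that way. Id1, the target shown above, had 0.36.

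Of 5 Twist and Snail relatives, 4 were well above background, 3 of them higher in siFxr1 in both experiments, with 0.55 (SE 0.18) for Twist2 and 0.24 (SE 0.16) for Zeb2. Of 7 E proteins and myogenic partners, 5 were well above background, with 2 higher and 2 lower in both experiments, and Myod1 had -0.45 (SE 0.31). Tcf4 counted as higher by its brighter probe, at 0.26 (SE 0.49). Its other probe, also well above background on all 4 arrays, was lower in both experiments, at -0.93 (SE 0.39). Of 8 other repressors of myogenic factors, 5 were well above background on all 4 arrays, with 0 higher and 3 lower in both experiments. Mdfi, which encodes an inhibitor of the MyoD family, was well above background on 3 arrays and is named because of its values. Its log2 signal was 7.67 in siControl and 9.75 in siFxr1 in experiment 1, and 4.37 and 6.72 in experiment 2, where the siControl array was the dim one. The siFxr1 signal was 4.24-fold that of siControl in experiment 1 and at least 4.22-fold in experiment 2, against the lowest signal well above background on the dim array. Over all probes Mdfi was not called without the block (limma adjusted p = 0.975) or with the experiment as a block (limma B -2.42, adjusted p = 0.535). With the block and dim probes left out, Mdfi was called higher in siFxr1 (limma B 2.19, adjusted p = 0.0304). It passed that filter only through siFxr1, the group where its signal was higher, so that call is not independent support. Mdfi was also called with the block on median signal minus local background (limma B 1.08). The mean log2 difference of Mdfi was 2.22, but 1.19 with no background correction. It was 0.57 without the siControl array of experiment 2, 0.70 without the siFxr1 array of experiment 1, and 3.87 and 3.73 without the siControl array of experiment 1 and the siFxr1 array of experiment 2. These values also take in the difference between the experiments, since 1 pair is then incomplete. Of 7 muscle differentiation transcripts, 6 were well above background, with 1 higher in both experiments, 2 lower and 3 of mixed direction, and Myh3, the embryonic myosin heavy chain, had -0.62 (SE 1.08).

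The difference between the experiments was the larger one for the Notch-induced members. Hes1, Hey1 and Heyl were higher in experiment 1 than in experiment 2 under both conditions, by 3.20-fold, 3.96-fold and 8.78-fold on average. The comparison sets 2 series of cultures and slides against each other, with the condition as a term, and culture, slide and day of handling cannot be told apart in it.

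For Hes1, the log2 difference of experiment 1 from experiment 2 was 1.64 in siControl and 1.72 in siFxr1, with a mean of 1.68 (SE 0.19, 95% interval 1.08 to 2.28). For Hey1 it was 2.18 and 1.80, with a mean of 1.99 (SE 0.22, 95% interval 1.30 to 2.67). For Heyl it was 4.06 and 2.21, with a mean of 3.13 (SE 0.56, 95% interval 1.40 to 4.87). Each interval lay above 0, and each difference exceeded that of 95.6%, 97.4% and 99.8% of such probes, for Hes1, Hey1 and Heyl in turn. Over all 55681 probes none of the 3 was called (limma adjusted p = 0.109 for Hes1, 0.108 for Hey1 and 0.138 for Heyl). With dim probes left out, all 3 were called, with limma adjusted p of 0.0101, 0.00765 and 0.0107. In that fit 17.0% of 25540 probes were called.

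The other members showed smaller differences between the experiments. Id1 and Id3 were lower in experiment 1 in both conditions, with mean log2 differences of -0.50 (SE 0.19) and -0.59 (SE 0.25). Hes6 was higher by 0.67 in siControl but by only 0.06 in siFxr1, with a mean of 0.37 (SE 0.26). When arrays were scaled to their 75th percentile in place of quantile normalization, the differences of Id1 and Id3 became 0.0298 and -0.0138, and that of Hes6 became 0.89. Id2 and Snai1 differed in sign or were near 0 in 1 condition, with means of -0.05 (SE 0.23) and -0.43 (SE 0.31).

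**Figure D3:**
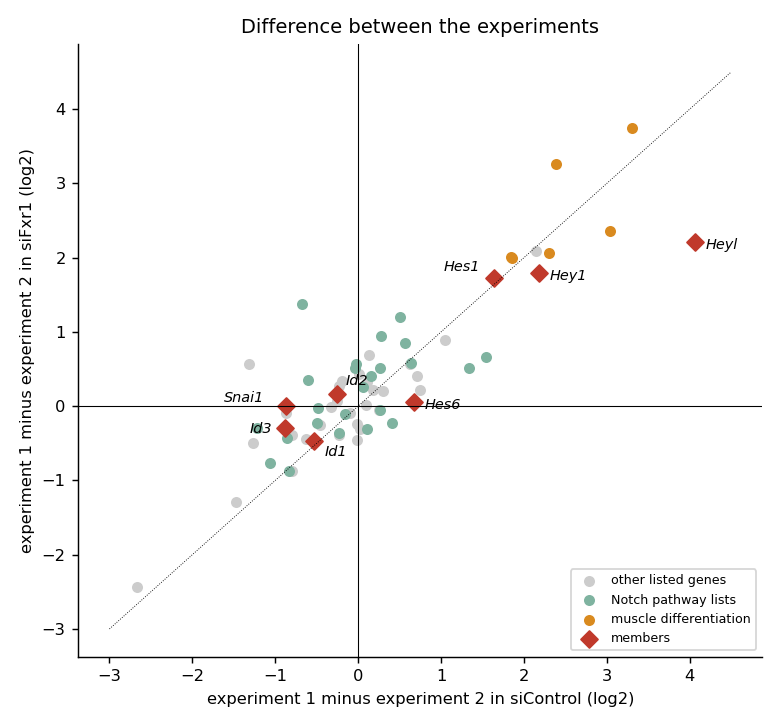
Log2 difference of experiment 1 from experiment 2, for siControl on the horizontal axis and siFxr1 on the vertical axis, for members, labelled, and listed genes well above background on all 4 arrays. Points on the dotted diagonal differ equally in both conditions. Hes1, Hey1 and Heyl lie at 1.64 or above on both axes, near the muscle differentiation transcripts, and the other members lie between -0.88 and 0.67.

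Over the 55681 probes, 0 of the 10 members passed the test of the experiments (limma, background 1.19%), where 11172 probes had an unadjusted p under 0.05. With dim probes left out, 3 members were called, where the background was 17.0% of 25540 probes. At least 2-fold higher signals in experiment 1 in both conditions were found for 3 of the 8 members (4.88% of the 23485 probes), and at least 2-fold lower signals for 0 (5.08%). Both arrays of experiment 1 lay above both arrays of experiment 2 for 4 members, Hes1, Hes6, Hey1 and Heyl (31.7%), and below them for 2, Id1 and Id3 (25.7%).

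The rest of the Notch pathway did not share 1 direction between the experiments. Of the 8 ligands and receptors well above background on all 4 arrays, 4 were higher in experiment 1 in both conditions and 3 lower, with a mean difference of 1.10 for the ligand Dll1 and -0.92 for the receptor Notch2. Of the 15 genes of processing and relay, 5 were higher and 5 lower. Dll4 and Nrarp were dim in 1 experiment, and are named because of their values. Nrarp, a Notch target whose product feeds back on the receptor complex, had a log2 signal of 7.19 and 6.80 in siControl and siFxr1 of experiment 1, and was not well above background in experiment 2. It was at least 5.95-fold higher in experiment 1 (limma adjusted p = 0.108, B 1.38). Dll4, a Notch ligand, had 9.35 and 9.00 in siControl and siFxr1 of experiment 2, was not well above background in experiment 1, and was at least 19.1-fold higher in experiment 2 (limma adjusted p = 0.108, B 1.68). Such a fold is a lower bound on the background-corrected scale only, set against the lowest signal that counted as well above background on the dim arrays. With no background correction the log2 difference of experiment 1 from experiment 2 was 1.26 for Nrarp and -2.81 for Dll4, against 4.08 and -6.32 with it. Tle2, a Groucho corepressor, was called lower in experiment 1, with -2.66 for siControl and -2.43 for siFxr1 (limma B 0.38).

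Muscle differentiation transcripts were higher in experiment 1 together with the Notch-induced members. Of the 7, 6 were well above background on all 4 arrays, and each of the 6 was at least 2-fold higher in both conditions, with a median log2 difference of 2.44 and a range from 1.92 to 3.53. Mylpf, a fast myosin light chain, had 3.30 in siControl and 3.75 in siFxr1 and was called (limma B 0.87). Ckm, the muscle creatine kinase, had 2.38 and 3.26, and Tnnc2, the fast troponin C, had 3.04 and 2.36. Myog, which encodes the differentiation factor myogenin, had 15.64 and 15.51 in siControl and siFxr1 of experiment 1, against 13.50 and 13.42 in experiment 2, and was called (limma B 0.02). Mdfi was called too, with 3.30 and 3.03 (limma B 0.88), but not with the condition left out of the fit, and its mean of 3.16 became 1.82 with no background correction. The E proteins Tcf3 and Tcf4 had mean log2 differences of -0.88 and -0.84 and were not called.

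The summed linear signal of the 7 differentiation transcripts was 429943 in siControl and 360119 in siFxr1 in experiment 1, and 85468 and 81665 in experiment 2. That of the 11 markers of other cell types was 369 in siControl and 375 in siFxr1 in experiment 1, and 566 and 738 in experiment 2, so it moved the other way. Of these markers, Cdh5, Bglap and Runx2 were well above background in both experiments, and Ptprc, Epcam, Adipoq, Plin1 and Alpl in neither. Cd68 was so only in experiment 2, and Pecam1 and Sp7 on every array but siControl of experiment 1. Runx2 and Bglap were lower in experiment 1 in both conditions, with mean log2 differences of -1.01 and -1.45, while Cdh5 differed in sign. The part of either sum in the difference of Hes1, Hey1 and Heyl between the experiments was not tested.

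**Figure D4:**
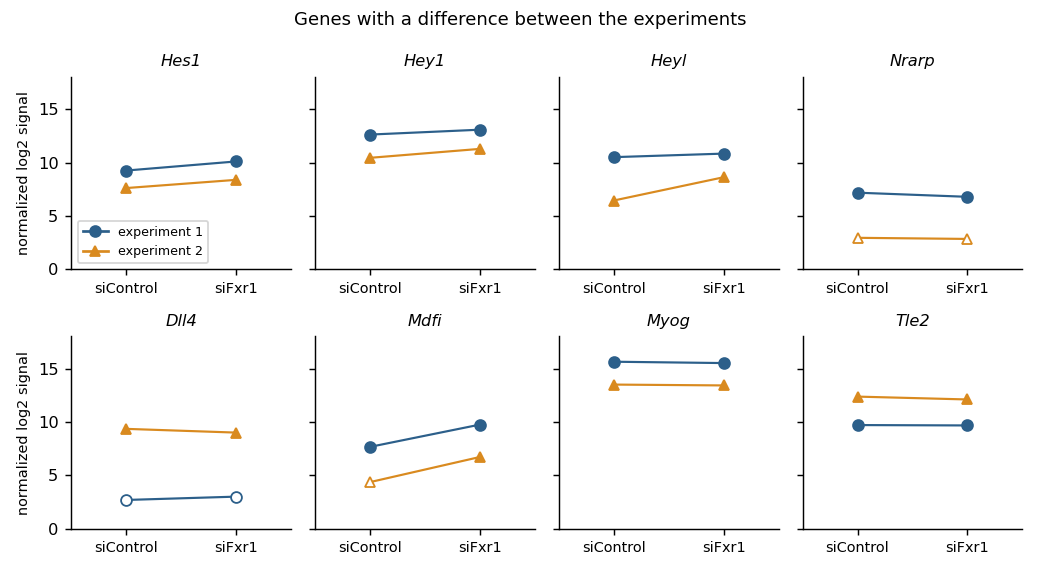
Normalized log2 signal (vertical axis) in siControl and siFxr1 for the 3 Notch-induced members and 5 genes of the pathway and differentiation lists, with experiment 1 as blue circles and experiment 2 as orange triangles. Open symbols were not well above background. In 6 of the 8 panels experiment 1 lies above experiment 2, and for Dll4 and Tle2 it lies below.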

How the data were processed

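RNA of 4 samples was measured, 2 of siFxr1 and 2 of siControl, grouped by their labels. The authors deposited the spot intensity of each array from Agilent Feature Extraction 10.7.3.1, background-corrected within the array and with no scaling between arrays, and a mark for signals well above background. A deposited table of normalized intensities ranked the spots as the raw median signal does and was used as an alternative. Depth has no meaning for arrays, and their number limits the precision.

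Intensities of the 59305 spots outside the controls were taken to log2 and quantile-normalized in R 4.3.3. Outlier spots (145 to 177 per array) were then set to missing, and spots of a probe were averaged, which gave 55681 probes. limma 3.58.1 (lmFit, eBayes) was fitted on all probes, with the condition as the term for siFxr1 against siControl and with condition and experiment for experiment 1 against experiment 2. A probe was called at B above 0 or a Benjamini-Hochberg adjusted p under 0.05. It was well above background where at least 0.5 of its spots carried the mark. The filter on dim probes kept 25540 probes, those with the mark on both arrays of siFxr1, of siControl or of each.

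Because the labels number the experiments and both samples of an experiment shared a slide, the numbers pair the samples. Samples of the same number deviated together from their condition means (correlation 0.714). In the fit without a block, p-values rest on the spread between 2 arrays per group. With the block, and in the comparison of the experiments, they rest on how far the siFxr1 difference varies between the 2 experiments. limma moderates each spread by those of all probes.

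Members and gene lists were chosen with earlier results of these data known. From each list, up to 3 genes with the largest differences among those well above background on all 4 arrays were named, with the brightest probe of a gene standing for it. Mdfi, Dll4 and Nrarp were outside that rule. Alternatives were other background corrections, scaling to the 75th percentile, the authors' table, the filter, the experiment as a block, each of the 4 pairwise ratios between conditions taken as an observation, and each array left out. Gene names and mm9 positions are the array files' own.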

Additional observations from a re-analysis of the deposited data

How the results depend on the processing

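Signal over background left Id4 and Twist1 without a fold, and the log2 differences of Twist1 below are of signals at background level. The member count in siFxr1 against siControl was 0 in every setting run, the replicate block included, and the block changed no member's call. Over all probes that comparison gave 0 calls, also with the replicate block alone. It gave 354 with the replicate block and the filter on dim probes and 345 with the replicate block on median signal minus local background. With the 4 ratios as observations, which share arrays and are not independent, it gave 1107. In the comparison of the experiments, 664 probes and 0 members were called, against 5846 probes with scaling to the 75th percentile, 5450 with the authors' table, 4342 with dim probes left out, 3686 with median minus background, 5092 with no background correction and 4496 with normexp, and 3 members in each of these. The cause was not tested.

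The background correction and the scaling moved several values. With no background correction the siFxr1 difference of Id1 was 0.18, that of Adam17 -0.73, that of Notch4 -0.38 and that of Hes7 -0.26. Signs turned in few settings. For Id2 the siFxr1 difference was -0.0488 with the authors' table, -0.0519 with median minus background (also with the block), -0.0520 with no background correction and -0.0329 with normexp. For Id1 and Id2 the difference between the experiments was 0.0298 and 0.42 with scaling to the 75th percentile. For Twist1, dim on all arrays, it was -0.0406 with the authors' table and -0.0374 with no background correction, and the siFxr1 difference was -0.0306 with normexp.

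Leaving out 1 array breaks a pair, so the siFxr1 difference then also takes in the difference between the experiments. Within each experiment the siFxr1 array was the higher for Hes1, Hey1 and Heyl. With 1 array left out, the siFxr1 difference turned sign for the genes that follow. It ranged from -0.0509 to 1.67 for Hes1, -0.44 to 1.73 for Hey1, -0.77 to 3.28 for Heyl, -0.25 to 0.43 for Hes6, -0.70 to 0.18 for Id3, -0.12 to 0.76 for Snai1, -1.12 to 0.35 for Hdac4, -0.18 to 1.14 for Msx1 and -1.62 to 0.38 for Myh3. Without a change of sign it ranged from 0.0890 to 0.62 for Id1, 0.0217 to 0.28 for Id2, 0.00389 to 0.86 for Notch3 and -1.62 to -0.24 for Lfng, among others. The lone array was assumed to vary like the other group. The difference between the experiments ranged from -0.26 to 0.16 for Id2, -0.87 to 0.00666 for Snai1 and -0.0114 to 0.33 for Twist1, as values with no test, since no residual degrees of freedom remained.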
